A study of Homo sapiens and Homo sapiens
Mus musculus and Mus musculus with 200 samples.

Results

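The AP-2 transcription factor genes TFAP2A, TFAP2B, TFAP2C, TFAP2D and TFAP2E were followed through chromatin immunoprecipitation sequencing (ChIP-seq) of cranial neural crest cells of human origin (hCNCC), of transfected HEK293 cells, of the leukaemia line RS4;11 and of mouse embryonic face and limb. Members were the ATAC peak intervals (stretches of accessible chromatin) in the H3K27ac count tables, and the peaks in the deposited peak lists, that lay within 100 kb of a GENCODE transcript start of any of the 5 genes, with the mouse orthologues used for mouse lists. By this rule 107 of 213151 intervals were members. Of these, 39 were nearest TFAP2A, 22 nearest TFAP2B, 19 nearest TFAP2C, 8 nearest TFAP2D and 19 nearest TFAP2E, and 7 intervals within reach of both TFAP2B and TFAP2D were given to the nearer gene. In the human build hg38 the genes lie at chr6:10393186-10419659 (TFAP2A, minus strand), chr6:50818723-50847619 (TFAP2B), chr20:56629306-56639283 (TFAP2C), chr6:50713526-50773033 (TFAP2D) and chr1:35573314-35595328 (TFAP2E). Among the 107 intervals 58 were intergenic, 34 intronic, 4 in coding exons, 8 in other exons and 3 in UTRs.

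AP-2 proteins bind GC-rich palindromes as dimers and share a helix-span-helix domain at the C-terminus. TFAP2A and TFAP2B are expressed in neural crest cells and act together in the formation of the face; mutations of TFAP2A cause branchio-oculo-facial syndrome and mutations of TFAP2B cause Char syndrome. TFAP2C is best known from trophectoderm, germ cells and surface ectoderm, TFAP2D from the midbrain and retina, and TFAP2E from olfactory tissue. TWIST1 is a basic helix-loop-helix factor of mesenchyme that binds E-boxes, and pairs with homeodomain factors such as ALX4 on a composite of an E-box and a TAAT core. H3K27ac, acetylation of lysine on the histone H3 tail, marks active promoters and enhancers.

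H3K27ac was counted in 36 libraries from hCNCC derived from H9 human embryonic stem cells: 6 lines, each at 0, 3 and 24 h of 500 nM dTAGV-1, with 2 replicates. dTAGV-1 is a degrader that removes proteins carrying a dTAG degron. The lines were WT (no tag), TWIST1FV (tagged TWIST1; both replicates from clone c64), ALX1FV (tagged ALX1; clones c17 and c33), ALX1FV ALX4- (tagged ALX1 together with ALX4 knockout; clones c22 and c14), PRRX1FV (tagged PRRX1; clones c10 and c14) and MSX1FNV (tagged MSX1; both replicates labelled c93/69). The 0 h samples are labelled dTAGV-1, while the treatment protocol names DMSO or dTAGV-1. TWIST1 peak lists came from WT and TWIST1FV before and 3 h after dTAGV-1, from ALX1FV ALX4- at 0 h and from unedited hCNCC. AP2a (the TFAP2A protein) was profiled in unedited hCNCC, in 1 library with a Novus Bio antibody and 1 with a Cell Signaling antibody. HEK293, a human embryonic kidney line, was transfected with V5-tagged TWIST1, its variants or V5-NEUROD1 (another basic helix-loop-helix factor) from pcDNA3.1, each with or without ALX4-Flag, or with untagged TWIST1 from pCAG, alone or with ALX4-Flag-HA. V5-TWIST1 was also paired with PRRX1a, PRRX1b, MSX1 or PHOX2A, all Flag-tagged, and pUC19 was the control. RS4;11 cells and E10.5 mouse tissues (FNP, the frontonasal prominence; Mx, maxillary; Md, mandibular; FL and HL, fore- and hindlimb) gave 1 TWIST1 list each. In the H3K27ac data a line could not be told apart from its clones, its differentiation or its library preparation, and outside the clone labels nothing says that replicates came from separate cultures, so p-values there may measure technical spread.

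H3K27ac libraries held 5137169 to 9173063 counts, and the log2 levels of replicates correlated at r = 0.861 to 0.909 across intervals, which are not independent. Crest identity was checked at start-site intervals: all 11 cranial neural crest markers had one, and their summed level at 0 h was 768 to 773 CPM per kb (counts scaled to library size and interval length) in WT, 709 to 735 in TWIST1FV, 740 to 745 in ALX1FV, 605 to 642 in ALX1FV ALX4-, 597 to 609 in PRRX1FV and 602 to 632 in MSX1FNV. Of 5 pluripotency genes POU5F1 and NANOG had no start-site interval, and the other 3 summed to 132 to 217 CPM per kb over the 0 h libraries, most of it at LIN28A (120 to 195). Neural progenitor markers (5 of 5 with an interval) summed to 2.99 to 7.46, and surface ectoderm markers (5 of 7, without the keratins KRT5 and KRT14) to 11.7 to 22.3.

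The sequences below belong to sites named in the results. All but the last are summit windows (100 bp on each side of a peak's summit, plus strand, hg38). They cover the TWIST1 peaks whose intervals were called lower after TWIST1 depletion and the strongest TWIST1 peak near TFAP2B. Also shown are the 1 member peak with the composite motif and a pair of AP2a peaks that each overlapped a TWIST1 peak. The TFAP2B peak of this pair was low in rank for TWIST1 and for both AP2a antibodies (values below). Capitals mark every match on either strand to an E-box (CAGATG or CAGCTG, or likewise CATATG or CATCTG), to the composite (an E-box and TAATTA or TAATTG 4 bp apart) or to the AP-2 palindrome GCCNNNGGC. The last sequence is the 250 bp before a TFAP2A start, on the minus strand, from RefSeq (GRCh38.p14). Peaks of both AP2a antibodies reached into it but were low in rank, 17661 (Novus Bio) and 18374 (Cell Signaling). The Novus Bio peak begins at position 10412629, and its summit, 10412728, lies outside the printed stretch.
TFAP2A, TWIST1 peak 17.2 kb downstream, chr6:10386997-10387197: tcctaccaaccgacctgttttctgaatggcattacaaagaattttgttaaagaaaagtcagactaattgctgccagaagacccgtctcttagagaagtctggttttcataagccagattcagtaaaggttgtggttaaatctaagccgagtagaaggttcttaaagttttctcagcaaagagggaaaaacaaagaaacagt
TFAP2E, TWIST1 peak 17.0 kb downstream, chr1:35605547-35605747: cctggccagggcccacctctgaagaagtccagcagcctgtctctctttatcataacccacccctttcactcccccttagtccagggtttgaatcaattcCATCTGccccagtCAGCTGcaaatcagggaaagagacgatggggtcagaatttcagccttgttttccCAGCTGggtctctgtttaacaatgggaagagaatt
TFAP2E, TWIST1 peak 33.4 kb upstream, chr1:35539383-35539583: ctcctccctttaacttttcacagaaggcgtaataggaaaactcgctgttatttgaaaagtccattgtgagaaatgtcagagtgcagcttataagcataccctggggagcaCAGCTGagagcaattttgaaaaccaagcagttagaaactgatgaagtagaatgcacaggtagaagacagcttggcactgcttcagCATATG
TFAP2B, TWIST1 peak 30.0 kb downstream, chr6:50852474-50852674: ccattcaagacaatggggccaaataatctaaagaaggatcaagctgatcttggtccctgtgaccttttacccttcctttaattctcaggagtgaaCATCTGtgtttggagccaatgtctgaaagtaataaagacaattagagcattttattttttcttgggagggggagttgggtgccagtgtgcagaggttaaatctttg
TFAP2B, TWIST1 peak with the composite, chr6:50837639-50837839: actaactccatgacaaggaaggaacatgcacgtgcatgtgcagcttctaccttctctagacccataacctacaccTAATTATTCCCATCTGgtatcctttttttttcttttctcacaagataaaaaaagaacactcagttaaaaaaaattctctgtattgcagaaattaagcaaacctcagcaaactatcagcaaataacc
TFAP2A, peak of AP2a and TWIST1 13.9 kb downstream, chr6:10390192-10390392: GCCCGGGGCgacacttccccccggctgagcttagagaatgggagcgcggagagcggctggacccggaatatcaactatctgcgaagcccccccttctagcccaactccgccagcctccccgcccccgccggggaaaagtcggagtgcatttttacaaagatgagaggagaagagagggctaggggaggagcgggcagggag
TFAP2B, intronic peak of AP2a and TWIST1, chr6:50842465-50842665: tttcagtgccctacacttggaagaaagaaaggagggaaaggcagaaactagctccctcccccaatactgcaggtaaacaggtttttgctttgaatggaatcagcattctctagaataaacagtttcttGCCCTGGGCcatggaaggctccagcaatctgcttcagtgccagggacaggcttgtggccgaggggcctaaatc
TFAP2A, promoter with an AP2a peak, chr6:10412392-10412641: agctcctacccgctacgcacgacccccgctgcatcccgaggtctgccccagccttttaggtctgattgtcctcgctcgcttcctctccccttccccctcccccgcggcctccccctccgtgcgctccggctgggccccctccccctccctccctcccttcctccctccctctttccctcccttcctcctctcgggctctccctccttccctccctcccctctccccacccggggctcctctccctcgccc
The TFAP2E window 17.0 kb downstream held 3 E-boxes, 1 CATCTG and a pair of CAGCTG. The TFAP2A window 17.2 kb downstream held no match to any of these motifs, which says only that these letters are not in this window.

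TWIST1 bound the neighbourhoods of TFAP2A, TFAP2B and TFAP2E in neural crest cells, and scarcely those of TFAP2C and TFAP2D. Of 42318 TWIST1 peaks shared by both WT replicates at 0 h, 28 were members, with 11 near TFAP2B, 10 near TFAP2A, 6 near TFAP2E, 1 near TFAP2C and 0 near TFAP2D. The peak's fold enrichment and -log10 p are the authors' own values and are used here to describe and rank peaks within a list. The strongest member peak was at TFAP2E, chr1:35604919-35606271, in an intron of PSMB2, with a fold enrichment of 69.1 and rank 1971 of 59282 peaks in the first WT replicate. At TFAP2B the strongest was chr6:50851750-50852959, intergenic and 30.0 kb downstream, with a fold of 56.8 and rank 3540. A TWIST1 peak also covered the TFAP2B start (chr6:50818608-50819192, fold 18.1).

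At TFAP2A the strongest TWIST1 peak was chr6:10386757-10387406, 17.2 kb downstream, with a fold of 25.4 and rank 10252. The single TFAP2C peak, 93.8 kb downstream, had a fold of 4.04 and rank 53317. The members thus spread over nearly the whole range of the list. Of the 28 peaks, 14 were found in all 7 crest lists from cells that still had TWIST1 (50.0%, beside 44.3% of all 42318 such peaks), and 24 overlapped an ATAC interval (85.7%, beside 91.2%). These counts carry no p, and the depth of the peak libraries is not given in the sources used here.

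**Figure D1:**
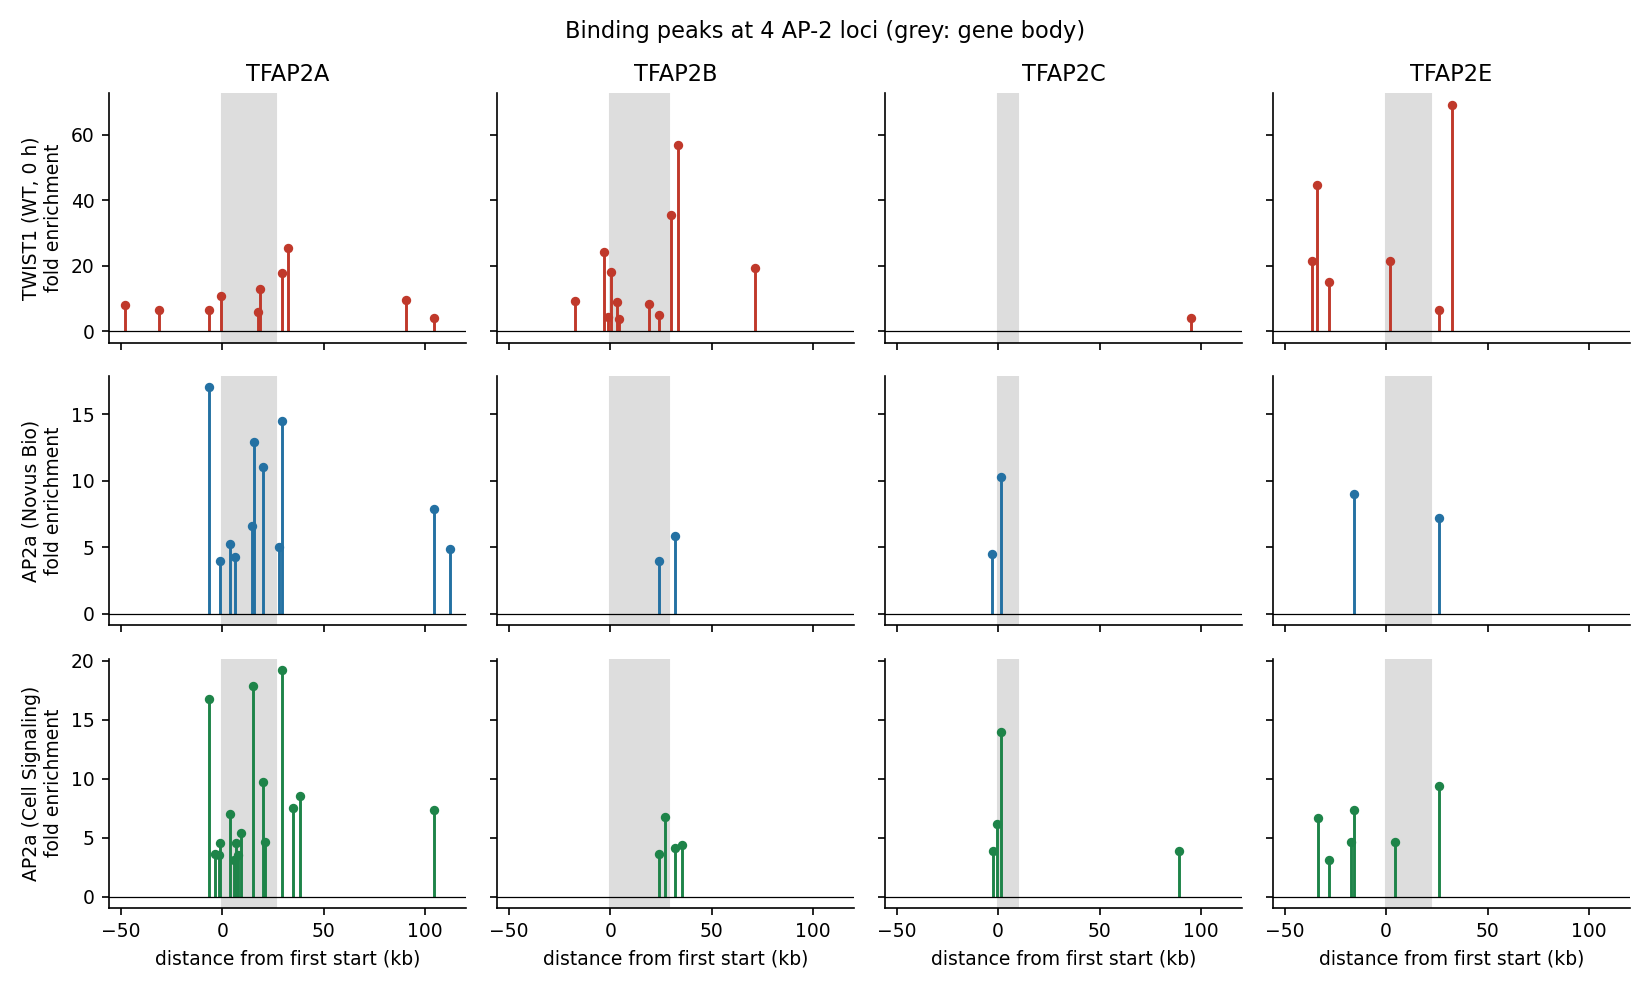
Fold enrichment (authors' values, vertical axes) of peaks against distance from the gene's first transcript start in kb (horizontal axes, positive downstream, gene body in grey) for TFAP2A, TFAP2B, TFAP2C and TFAP2E (columns); rows are TWIST1 peaks shared by both WT replicates at 0 h, AP2a with the Novus Bio antibody and AP2a with the Cell Signaling antibody. Tall TWIST1 peaks stand downstream of TFAP2B (fold 56.8) and TFAP2E (fold 69.1), while AP2a peaks crowd around the TFAP2A starts.

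After 3 h of TWIST1 depletion no member peak was left in the TWIST1 lists. Before depletion, 43 and 31 member peaks stood in the WT lists, and after 3 h 39 and 38. TWIST1FV lists began with 25 and 17 and ended with 0 and 0, in whole lists of 835 and 739 peaks. In WT 32 of 43 (74.4%) and 26 of 31 (83.9%) of the initial member peaks were overlapped after 3 h, 79.1% ± 6.68 (SD, n = 2). In TWIST1FV the shares were 0 of 25 and 0 of 17, which allow up to 12.0% and 17.6%. The replicates of the 2 lines did not overlap, and the exact two-sided permutation test gave p = 0.333, the smallest that 2 lists against 2 allow. Over the whole lists 76.8% and 81.8% of WT peaks and 2.45% and 2.94% of TWIST1FV peaks were overlapped at 3 h.

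In ALX1FV ALX4- the number of member peaks was within the spread of WT. This line also carries tagged ALX1 and comes from other clones, so the ALX4 knockout cannot be told apart from these. ALX1FV ALX4- lists held 40 and 36 (SD 2.83, n = 2) against 43 and 31 in WT (SD 8.49), with p = 1.00 in the exact two-sided permutation test, whose smallest p is 0.333. Of the 28 peaks of WT, 23 were in both ALX1FV ALX4- lists (82.1%, 64.4 to 92.1), beside 66.3% of all 42318. The order of the peaks within a list varied between lists. In the first WT list the -log10 p of the TFAP2E peak 17.0 kb downstream was 303. The TFAP2B peak 30.0 kb downstream had 210, the TFAP2E peak 33.4 kb upstream 178 and the TFAP2B start 62.8. In the second WT list these 4 peaks had 241, 120, 208 and 78.3. In the 2 ALX1FV ALX4- lists the TFAP2E peak 33.4 kb upstream had 311 and 208, and the TFAP2B start 113 and 91.1. Both stood above the TFAP2E peak 17.0 kb downstream (31.9 and 48.9) and the TFAP2B peak 30.0 kb downstream (28.1 and 31.3). The unedited hCNCC list also had the upstream TFAP2E peak (139) and the TFAP2B start (143) above those 2 peaks (113 and 45.7). That order was thus not particular to ALX1FV ALX4-, and the orders were not tested. V5 lists of the tagged homeodomain factors (8 lists of 1 to 1389 peaks) held no member peak. Members were 0.0662% of the WT TWIST1 peaks, so lists this short would hold few or none, and the zeros say little.

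AP2a peaks were most numerous at TFAP2A, its own gene, which also has the most annotated starts (18). With the Novus Bio antibody 17 of 21519 peaks were members, 11 near TFAP2A, 2 near TFAP2B, 2 near TFAP2C and 2 near TFAP2E. With the Cell Signaling antibody 30 of 24454 were members, 16 near TFAP2A, 4 near TFAP2B, 4 near TFAP2C and 6 near TFAP2E. No AP2a peak was near TFAP2D in either list. Of the 17 Novus Bio peaks, 15 (88.2%, 95% Wilson interval 65.7 to 96.7) were also in the other list, beside 81.8% over the whole list. Of the 30 Cell Signaling peaks 15 (50.0%, interval 33.2 to 66.8) were also in the Novus Bio list, beside 71.8% over the whole list. With 1 library an antibody there is no replicate check.

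By the Novus Bio values the strongest AP2a peak of both antibodies was chr6:10425712-10426399, 6.05 kb upstream of TFAP2A (fold 17.0, rank 1938 of that list). The next by these values, chr6:10389948-10390669, had a fold of 14.5 with Novus Bio and 19.2 with Cell Signaling. Its window holds the palindrome GCCCGGGGC shown above. Both of these peaks overlapped a TWIST1 peak. In the Cell Signaling list the order differed. There the peak 13.9 kb downstream led (rank 1638), followed by chr6:10403916-10405332 at a TFAP2A start (fold 17.8, rank 2167). The upstream peak came after these (fold 16.7, rank 2522). AP2a also covered the TFAP2C start (chr20:56630005-56631521, fold 10.3 and 13.9), where H3K27ac was low in crest cells (values below). At TFAP2E the strongest by Novus Bio was chr1:35557136-35558053 (fold 9.03), and at TFAP2B chr6:50850532-50850855, with a fold of 5.87 and rank 12575.

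TWIST1 and AP2a met at few of these sites. Of the 28 TWIST1 peaks, 6 (21.4%, interval 10.2 to 39.5) overlapped an AP2a peak of both antibodies, beside 18.9% over the whole list. Of the AP2a peaks, 6 of 17 (35.3%, 17.3 to 58.7) with Novus Bio and 8 of 30 (26.7%, 14.2 to 44.4) with Cell Signaling overlapped a TWIST1 peak, beside 42.0% and 40.4% over the whole lists, and each whole-list share lay inside the members' interval. Intervals cover counting error alone.

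In 23 of 24 comparisons of motif, peak set and window the share over all peaks lay within the interval of the members' share. The comparisons rescored the same peaks with nested windows and other summits, so they are not separate checks. With 15 to 28 member peaks the intervals are wide, so this tally says little. An E-box stood in 16 of 28 TWIST1 summit windows (57.1%, 39.1 to 73.5), beside 67.5% of all TWIST1 windows. The composite stood in 1 of 28 (3.57%, beside 2.71%), the intronic TFAP2B peak at chr6:50837559-50837945, as TAATTATTCCCATCTG. GCCNNNGGC stood in 6 of 15 AP2a windows (40.0%, 19.8 to 64.3), beside 39.8% of all AP2a windows, and an E-box in 7 of 15 (46.7%, 24.8 to 69.9), beside 29.5%. The exception was the E-box within 50 bp of the Cell Signaling summits, in 6 of 15 (40.0%, 19.8 to 64.3) beside 16.9%; at the Novus Bio summits it was 5 of 15 (33.3%, 15.2 to 58.3) beside 16.7%. Of 5 RefSeq promoters matched for 4 of the genes, 1 (TFAP2E) held an E-box and 0 held GCCNNNGGC, beside 26.1% and 19.8% of 35116 promoters of the same length.

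TFAP2A and TFAP2B carried strong H3K27ac at their starts in every crest library, and TFAP2C and TFAP2E did not. Levels here are CPM per kb at the strongest interval within 1 kb of a start. Over the 36 libraries the TFAP2A start (chr6:10412053-10412872, an intron shared with the antisense gene TFAP2A-AS1) was at 82.5 or more, with a median of 115. The TFAP2B start (chr6:50819551-50820545) ranged from 82.4 to 170 with a median of 119. The libraries of the 2 genes overlap, so the levels of TFAP2A and TFAP2B did not separate.

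The TFAP2E start (chr1:35576952-35577927) ranged from 0.293 to 3.47 with a median of 1.39, and rested on 2 to 24 counts. The TFAP2C start (chr20:56630036-56630936) ranged from 0 to 3.44 with a median of 0.999, and rested on 0 to 22 counts. Both lay far below TFAP2A and TFAP2B, and their ranges overlap each other. TFAP2D had no ATAC interval within 1 kb of a start. Summed over its member intervals, TFAP2E had 16.9 and 18.8 CPM per kb in the 2 WT libraries at 0 h, close to the 19.6 and 19.8 of TFAP2A; its strong intervals lie in the neighbouring PSMB2 and KIAA0319L rather than at its start. TFAP2B had 36.5 and 36.9, the highest of the 5.

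**Figure D2:**
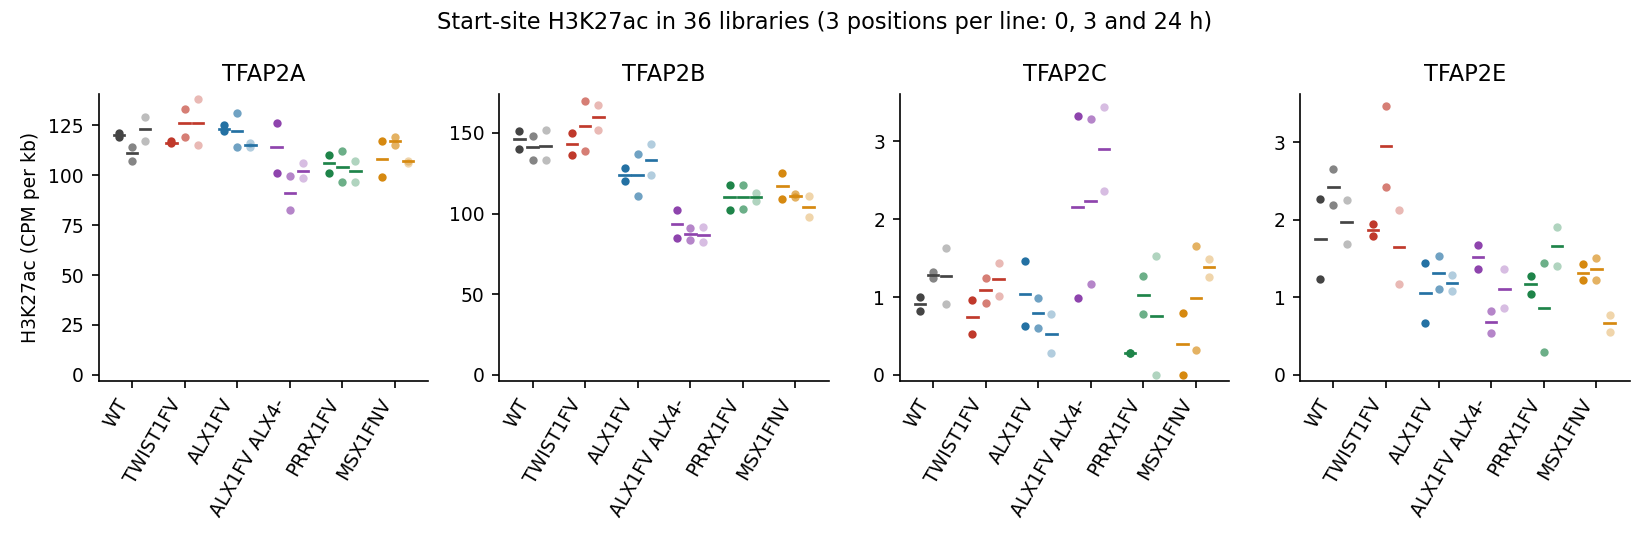
H3K27ac level (CPM per kb, vertical axes) at the start-site interval of 4 AP-2 genes in 6 lines (horizontal axis) at 0, 3 and 24 h of dTAGV-1; points are the 2 libraries and bars their mean. TFAP2A and TFAP2B stand between 82.4 and 170 in every library, while TFAP2C and TFAP2E stay at or below 3.47.

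After TWIST1 depletion, H3K27ac was called lower at 3 member intervals, all bound by TWIST1. At 2 of them the change at 24 h also differed from that of WT. No AP-2 start that could be tested was called as changed. Of 107 member intervals 64 passed the filter on low counts in TWIST1FV. At 3 h, 2 of the 64 were lower at an adjusted p under 0.05 (edgeR), beside 4.28% of all tested intervals, and at 24 h 3 were lower, beside 9.49%, and 0 were higher at either time. The count of members is thus near or under the background. The median log2 fold change of the members was 0.12 at 3 h and 0.02 at 24 h, beside 0.02 and 0.03 over all intervals. Of the 21 tested members with a TWIST1 peak 2 were lower at 3 h and 3 at 24 h, beside 13.4% and 28.9% of all tested intervals with such a peak. The 24 h median was -0.11 for these members and 0.07 for the others, beside -0.73 and 0.23 over all intervals of each kind. Marker levels also moved in TWIST1FV: the summed surface ectoderm level was 12.7 to 13.0 CPM per kb at 0 h and 23.2 to 24.7 at 24 h (WT 11.7 to 13.5 and 11.1 to 11.7), and the pluripotency sum was 132 to 160 and 181 to 212 (WT 157 to 162 and 163 to 164). The crest sum was 709 to 735 and 726 to 794. The part of these markers in the H3K27ac changes was not tested.

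The largest change was 17.3 kb downstream of TFAP2A, at the intergenic interval chr6:10386799-10387299, over the strongest TWIST1 peak of that gene. Its TWIST1FV libraries read 14.2 and 17.4 CPM at 0 h, 8.47 and 6.11 at 3 h, and 3.31 and 3.77 at 24 h. WT libraries read 9.83 and 11.8, 10.1 and 12.8, and 12.5 and 10.6 CPM at these times. The TWIST1FV groups did not overlap between times, whereas the WT groups did. The log2 fold change in TWIST1FV was -1.16 ± 0.32 (SE; edgeR adjusted p = 0.0423) at 3 h and -2.16 ± 0.34 (2.67e-04) at 24 h. The change differed from that of WT at 24 h by -2.27 ± 0.43 (adjusted p = 1.01e-04, interaction term of a fit over all 36 libraries).

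At TFAP2E the interval 17.1 kb downstream, chr1:35605036-35606335 in a PSMB2 intron, fell in the same manner. TWIST1FV libraries read 59.0 and 55.7 CPM at 0 h, 35.0 and 34.9 at 3 h, and 22.9 and 21.8 at 24 h. WT libraries read 59.8 and 57.8, 51.9 and 59.2, and 60.5 and 57.7 at the same times. Here too the TWIST1FV groups were apart at each time. The log2 fold change was -0.76 ± 0.18 (adjusted p = 0.0201) at 3 h and -1.36 ± 0.19 (7.88e-05) at 24 h, and the difference from WT at 24 h was -1.37 ± 0.28 (4.45e-04).

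The third interval was chr1:35539034-35539534, 33.8 kb upstream of TFAP2E in a KIAA0319L intron. It read 23.8 and 25.7 CPM at 0 h, 20.3 and 20.5 at 3 h, and 14.3 and 14.8 at 24 h in TWIST1FV, and the 24 h fold change was -0.77 ± 0.23 (adjusted p = 0.0307). In WT the 2 libraries at 0 h already spanned 16.1 to 29.0, and the difference from WT missed the threshold (-0.87 ± 0.30, adjusted p = 0.0715). The interaction called 2 of 87 members lower at 24 h, beside 4.92% of all intervals, and 0 of 87 at 3 h, beside 2.35%, with 6 at an unadjusted p under 0.05; DESeq2 gave 2 and 0.

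At the starts, TWIST1FV log2 fold changes were 0.07 ± 0.15 and 0.12 ± 0.15 for TFAP2A at 3 and 24 h, 0.07 ± 0.13 and 0.16 ± 0.13 for TFAP2B, and 0.61 ± 0.51 and -0.19 ± 0.53 for TFAP2E, none past the threshold. The 3 h calls rested on single libraries: the count of 2 became 0 without either 0 h library or without the second 3 h library of TWIST1FV, and 1 without the first 3 h library. At 24 h the call at the TFAP2E interval 33.8 kb upstream was lost without any 1 of the libraries (adjusted p = 0.107 to 0.199), while those at the other intervals were not.

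**Figure D3:**
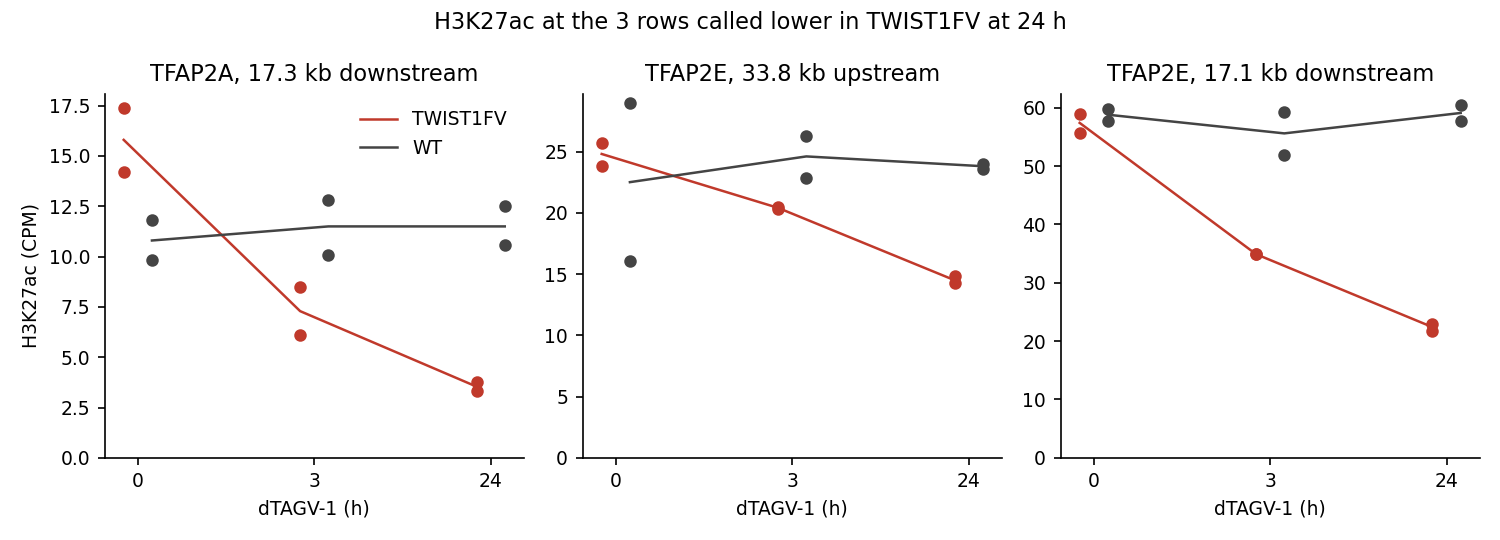
H3K27ac (CPM, vertical axes) at the 3 member intervals called lower in TWIST1FV at 24 h, in TWIST1FV and WT at 0, 3 and 24 h of dTAGV-1 (horizontal axes). Points are libraries and lines join the means. At the TFAP2E interval 33.8 kb upstream the difference from WT missed the threshold. The TWIST1FV level at the TFAP2A interval drops from 14.2 and 17.4 to 3.31 and 3.77, while WT stays between 9.83 and 12.8.

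No member interval was called as changed with time in the other lines. With edgeR 0 of 74 members were called in WT at 3 h and 0 at 24 h (2 and 0 at an unadjusted p under 0.05), beside 0% and 0% of all intervals. In ALX1FV 0 of 66 were called at each time (2 and 0 unadjusted), beside 0% and 0%. In ALX1FV ALX4- 0 of 66 were called at each time (5 and 0 unadjusted), beside 0% at 3 h and 0.0279% at 24 h. In PRRX1FV 0 of 72 were called (4 and 2 unadjusted), beside 0% and 8.27e-04%, and in MSX1FNV 0 of 69 (2 and 2 unadjusted), beside 0.00179% and 0.00448%. DESeq2 also called 0 members in each of these 10 comparisons. Since almost no interval was called in these lines, the zeros say little about the AP-2 genes.

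Before any depletion, H3K27ac around TFAP2B was lower in 3 lines than in WT. At 0 h, 87 of the 107 members could be tested in the fit over all 36 libraries, 21 of them near TFAP2B. In ALX1FV ALX4- 18 members were lower, 14 of them near TFAP2B, beside 5.30% of all intervals. In PRRX1FV 8 members were lower, 7 of them near TFAP2B, beside 1.80%, and in MSX1FNV 10 were lower, 8 of them near TFAP2B, beside 1.51%. The median log2 fold change of the 21 TFAP2B intervals was -1.13, -0.69 and -0.57 in these lines, beside medians of 0.02, 0.03 and 0.03 over all intervals. In such bulk samples fewer cells of a type and less acetylation per cell cannot be told apart.

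Summed over the TFAP2B intervals, the 2 WT libraries held 490 and 494 CPM at 0 h. TWIST1FV held 475 and 511, ALX1FV 379 and 409, and MSX1FNV 335 and 344. PRRX1FV held 307 and 331, and ALX1FV ALX4- held 260 and 270. WT and TWIST1FV overlapped, and each of the other 4 lines lay below both. Per the labels, these 4 are also the lines whose libraries carried no mouse spike-in chromatin, so this split cannot be told apart from library preparation. The summed level of the crest markers given above was also lower in ALX1FV ALX4-, PRRX1FV and MSX1FNV than in WT, and its part in this result was not tested. That sum includes PAX3 and ALX1, called lower in each of these lines, and ALX4, called lower in ALX1FV ALX4- and PRRX1FV. ALX1 is tagged and ALX4 knocked out in ALX1FV ALX4-. At TFAP2A the differences were smaller: its intervals summed to 449 and 454 CPM in WT. ALX1FV ALX4- (394 and 411), PRRX1FV (427 and 438) and TWIST1FV (437 and 437) lay below WT without overlap. MSX1FNV (407 and 451) and ALX1FV (442 and 496) overlapped WT. The median log2 fold change of the TFAP2A intervals was -0.05 in ALX1FV ALX4-, 0.29 in PRRX1FV and 0.19 in MSX1FNV.

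In TWIST1FV 0 of 87 members differed from WT at 0 h (3 at an unadjusted p under 0.05), beside 0.0744% of all intervals, and in ALX1FV 0 of 87 (9 unadjusted), beside 0.412%; DESeq2 also called 0 in both. The 21 TFAP2B intervals of ALX1FV nevertheless all lay below WT, from -0.17 to -1.07 with a median of -0.40. WT and TWIST1FV libraries carried mouse spike-in chromatin and the other 4 lines did not, per the labels, so the comparisons were also made against ALX1FV, an alternative chosen after seeing the data. Against ALX1FV, ALX1FV ALX4- had 9 members lower, 7 of them near TFAP2B, beside 2.33% of all intervals, and PRRX1FV and MSX1FNV had 0 (10 and 13 at an unadjusted p under 0.05). The calls also rested on single libraries. The PRRX1FV count of 8 became 2 or 3 without the first or second PRRX1FV library and 3 or 4 without the first or second WT library. The MSX1FNV count of 10 became 3 or 1 without the first or second MSX1FNV library and 4 or 3 without the first or second WT library. The ALX1FV ALX4- count of 21 called in either direction became 11 without its first library.

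The lower intervals formed one stretch over the TFAP2B start and another from 20.6 to 30.6 kb downstream of it. At the start-site interval the ALX1FV ALX4- libraries read 102 and 84.6 CPM per kb against 151 and 140 in WT, without overlap, and the log2 fold change was -0.66 ± 0.13 (adjusted p = 1.69e-04). The same interval did not pass in PRRX1FV (-0.39, adjusted p = 0.0921), MSX1FNV (-0.31, 0.224), ALX1FV (-0.24, 0.621) or TWIST1FV (-0.03, 0.994). Downstream the differences were larger.

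At chr6:50852349-50852849, 30.6 kb downstream and under the strongest TWIST1 peak of the locus, the fold changes were -2.43 ± 0.35 in ALX1FV ALX4- (adjusted p = 5.16e-07), -1.40 in PRRX1FV (0.00635) and -1.50 in MSX1FNV (0.00368). At chr6:50848075-50848575, 26.3 kb downstream, WT libraries read 8.84 and 9.66 CPM, PRRX1FV 2.05 and 1.50, ALX1FV ALX4- 2.23 and 2.18, and MSX1FNV 4.01 and 3.09. The groups did not overlap, and the fold changes were -2.35 ± 0.42 (adjusted p = 2.59e-04), -2.08 (1.74e-04) and -1.39 (0.0357). The intronic interval with both AP2a and TWIST1, chr6:50842395-50843221, read 10.6 and 13.6 CPM in WT and 2.00 and 4.08 in ALX1FV ALX4-. PRRX1FV read 3.33 and 4.76 there, and MSX1FNV 3.49 and 5.95. The peaks at this interval were weak. Its TWIST1 peak had rank 47064 of 59282 and was in 2 of the 7 crest lists, those of WT. Its AP2a peaks had a -log10 p of 5.41 (Novus Bio, rank 19279 of 21519) and 4.92 (Cell Signaling, rank 22374 of 24454).

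The largest difference was at chr6:50845653-50846153, a stretch of the TFAP2B UTR 23.9 kb from the nearest start. WT libraries read 6.39 and 7.55 CPM there, ALX1FV ALX4- 1.56 and 0.272, and MSX1FNV 0.698 and 1.90. The fold changes were -2.86 ± 0.52 (adjusted p = 6.13e-05) and -2.33 ± 0.51 (0.00342), and PRRX1FV, at 3.08 and 3.26 CPM, did not pass (-1.11, 0.224). In all, 6 member intervals were lower in each of the 3 lines, 5 near TFAP2B and the TFAP2E interval 17.1 kb downstream, and 14 of the TFAP2B intervals were lower in at least 1 line. The 3 comparisons share the WT libraries.

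**Figure D4:**
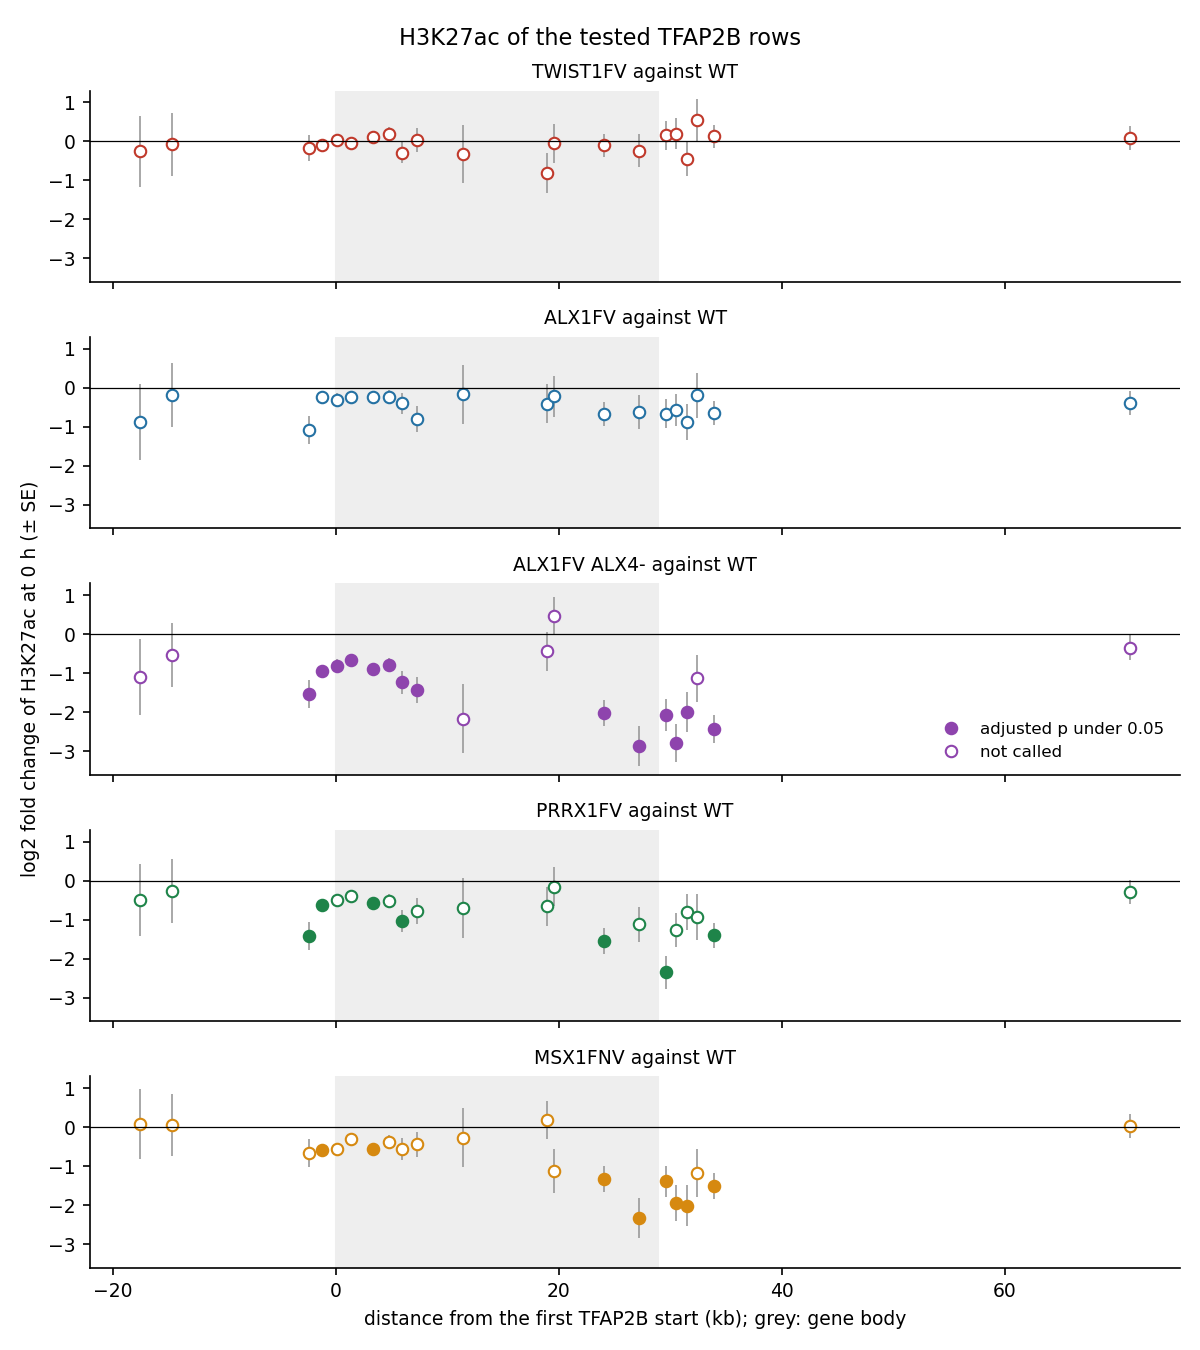
Log2 fold change of H3K27ac at 0 h against WT (vertical axis; bars are SE) of the 21 tested TFAP2B intervals in order along the chromosome (horizontal axis) in 5 lines; filled points have an adjusted p under 0.05. The filled points of ALX1FV ALX4- run from -2.86 to -0.66, and TWIST1FV and ALX1FV have none.

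Members with and without a TWIST1 peak were also set side by side at 0 h. In ALX1FV ALX4- 10 of the 25 with a TWIST1 peak were lower, beside 18.3% of all 41457 tested intervals with such a peak, and their median log2 fold change was -0.83 against -0.05 for the other members. Over all intervals these medians were -0.38 and 0.15. In PRRX1FV 6 of 25 were lower, beside 6.42%, with medians of -0.49 and 0.13 (all intervals -0.21 and 0.14). In MSX1FNV 8 of 25 were lower, beside 5.13%, with medians of -0.54 and -0.17 (all intervals -0.18 and 0.10). Of 16 tested members with AP2a of both antibodies 2 were lower and 2 higher in ALX1FV ALX4-, beside 12.6% and 3.49% of all such intervals; 1 was lower in PRRX1FV, beside 5.70%, and 3 were lower in MSX1FNV, beside 4.44%. These are counts and medians over chosen intervals and carry no test.

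The TFAP2E interval 17.1 kb downstream, which fell after TWIST1 depletion, also stood low in the homeodomain lines at 0 h. ALX1FV ALX4- libraries read 14.1 and 17.0 CPM, PRRX1FV 28.5 and 27.9, MSX1FNV 30.2 and 23.2 and ALX1FV 46.5 and 33.9, against 59.8 and 57.8 in WT. All 4 lines lay below WT without overlap. These 4 are also the lines without mouse spike-in chromatin, so line and library preparation cannot be told apart here. The fold changes against WT were -1.94 ± 0.21 (adjusted p = 4.55e-10), -1.04 ± 0.20 (8.64e-04) and -1.14 ± 0.21 (2.73e-04) for the first 3. Against ALX1FV, the ALX1FV ALX4- line differed by -1.38 ± 0.21 (adjusted p = 8.84e-06). PRRX1FV and MSX1FNV each had 0 of 14 tested TFAP2E intervals called against ALX1FV. A further TFAP2E interval, chr1:35603435-35603935, was lower in ALX1FV ALX4- (-1.57 ± 0.49, adjusted p = 0.0293); that call was lost without either ALX1FV ALX4- library or the second WT library.

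At TFAP2A, single intervals differed and in both directions. In ALX1FV ALX4- the introns and exons at chr6:10400951-10401451 and chr6:10401886-10402386, each overlapping a TWIST1 peak, were lower: 16.2 and 17.7 CPM against 31.0 and 29.9 in WT (-0.86 ± 0.21, adjusted p = 0.00386), and 23.3 and 29.5 against 49.9 and 43.5 (-0.84 ± 0.17, 2.91e-04). In the same line 3 TFAP2A intervals were higher, the only members called higher there, beside 3.17% of all intervals. They were chr6:10413933-10414433 (0.72 ± 0.21, adjusted p = 0.0171), chr6:10415001-10415501 (0.79 ± 0.26, 0.0428) and chr6:10431342-10431842 (1.73 ± 0.56, 0.0371). The last rests on 2.67 and 4.63 CPM against 1.47 and 0.604, and lost its call without either WT library. In MSX1FNV the interval with AP2a and TWIST1 at chr6:10389948-10390448 was lower, 13.8 and 11.7 CPM against 20.1 and 25.7 (-0.85 ± 0.24, adjusted p = 0.0409), a call lost without any 1 of these 4 libraries. The interval 17.3 kb downstream read 5.56 and 6.80 CPM in ALX1FV ALX4- and 12.4 and 13.5 in ALX1FV, a difference of -1.08 ± 0.30 (adjusted p = 0.0279).

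Genes that act with AP-2 were read at their start-site intervals. The 11 partners and inhibitors included the CITED coactivators and the KCTD1 and KCTD15 repressors of AP-2 activity. In TWIST1FV 0 of them were called at either time, beside 4.28% (3 h) and 9.49% (24 h) of all intervals called lower. Their medians were -0.04 and -0.12, beside 0.02 and 0.03 over all intervals. At 0 h 3 of the 11 were lower in ALX1FV ALX4- than in WT, beside 5.30% of all intervals, and 0 were higher. They were the acetyltransferase CREBBP (-1.03 ± 0.32, adjusted p = 0.0321), KCTD1 (-0.56 ± 0.13, 0.00289) and KCTD15 (-0.50 ± 0.15, 0.0259). In MSX1FNV KCTD1 alone was lower (-0.55, adjusted p = 0.0101), beside 1.51% of all intervals. The list's median was -0.26 in ALX1FV ALX4- and -0.39 in MSX1FNV, beside 0.02 and 0.03 over all intervals.

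Of 27 neural crest and neural plate border genes, 22 were tested in TWIST1FV. The crest regulator SNAI2 was lower at 3 h (-0.59, adjusted p = 0.0402), beside 4.28% of all intervals. At 24 h SNAI2 (-0.69) and INKA1 (-0.96), an AP-2 target in crest, were lower, beside 9.49%. The receptor ERBB3 (1.36) and TWIST1 itself (0.88) were higher at 24 h, beside 5276 of all 123361 tested intervals. Of 23 tested at 0 h in ALX1FV ALX4-, 7 were lower than in WT, beside 5.30% of all intervals. The paired-box factors PAX7 (-2.92 ± 0.33) and PAX3 (-2.65 ± 0.31) led them. Also among the 7 were ALX1 (-0.94) and ALX4 (-0.84), the tagged and the knocked-out gene of this line. PRRX1 was higher (1.25), beside 3.17%. In MSX1FNV 5 were lower, beside 1.51%, among them PAX3 (-2.59) and PAX7 (-2.15), and 2 were higher, beside 1904 of 174645 intervals. In PRRX1FV 4 were lower, beside 1.80%, and 0 higher. The median of this list was -0.31 in ALX1FV ALX4-, -0.30 in MSX1FNV and -0.15 in PRRX1FV, beside 0.02, 0.03 and 0.03 over all intervals. Of the AP-2 targets known from epithelia the cell cycle inhibitor CDKN1A was higher than in WT in ALX1FV (2.19), ALX1FV ALX4- (2.71), PRRX1FV (1.39) and MSX1FNV (1.28). No other of the 8 tested was called. Over all 174645 tested intervals 451, 5544, 1493 and 1904 were higher in these lines.

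In HEK293 cells, 7 of the 28 crest peaks (25.0%, 12.7 to 43.4) appeared in any of 40 lists with TWIST1 or a variant, beside 54.7% of all 42318 crest peaks; peaks near 1 gene are not independent, and the difference was not tested. V5-TWIST1(WT) lists held 15, 15 and 20 member peaks without ALX4 and 15, 20 and 35 with it (16.7 ± 2.89 and 23.3 ± 10.4, SD, n = 3; exact two-sided permutation p = 0.700, smallest 0.100). Per 10000 peaks of a list the means were 5.06 and 5.11. A list held at most 2 peaks near TFAP2B, the gene with most TWIST1 peaks in crest cells. The control pUC19 list held 0 member peaks, but it has only 463 peaks in all, so this zero says little. The intronic KIAA0319L crest peak chr1:35539028-35539910 was in 26 of the 40 lists and its neighbour chr1:35544900-35545376 in 20. Neither the TFAP2E peak in PSMB2 nor the TFAP2B peaks downstream of the gene appeared in any. TFAP2D had a peak in 2 of 3 lists with ALX4 and 0 of 3 without. Beside V5-TWIST1(WT) there were 15 pairs of single lists of the same TWIST1 construct and antibody, in which ALX4 went with more member peaks in 9, fewer in 5 and an equal number in 1. The fewer included pCAG-TWIST1 (26 without and 18 with ALX4) and V5-TWIST1 with the TWIST1 antibody (6 and 4). V5-NEUROD1 lists held 3 and 2.

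In mouse embryos Twist1 bound all AP-2 loci but Tfap2d. The lists of FNP, Mx, Md, FL and HL held 32, 9, 12, 23 and 32 member peaks, which merged into 51 regions. Of these 15 were in face lists alone (29.4%, beside 22.9% of all 69592 merged regions), 14 in limb lists alone (27.5%, beside 30.7%) and 22 in both (43.1%, beside 46.4%), and 5 were in all 5 tissues (9.80%, beside 16.9%). The region downstream of Tfap2e within Psmb2, chr4:126600434-126601554 (mm39), was the strongest member in FNP, with a fold of 70.2 and a -log10 p of 468, and its -log10 p was 13.4 to 23.4 in the other tissues' lists. At the Tfap2c start (chr2:172391935-172393930) the FNP value was 187, and at Tfap2a, 22.0 kb downstream (chr13:40857441-40860407), it was 171. Tfap2b had 11 peaks in FNP, 3 in each of Mx, Md and FL, and 7 in HL. Each tissue has 1 library, and lists of different length show no change between tissues.

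**Figure D5:**
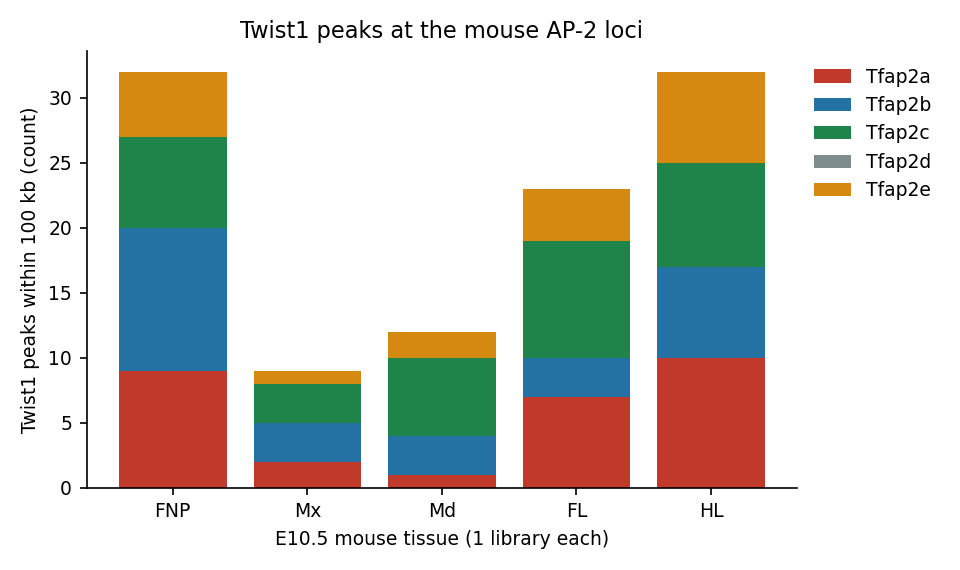
Number of Twist1 peaks (vertical axis) within 100 kb of each AP-2 gene (stacked, by colour) in 5 mouse tissues at E10.5 (horizontal axis), 1 library each. FNP and HL hold 32 each and Mx holds 9.

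In RS4;11 cells, a B-lineage leukaemia line, 13 of 70826 TWIST1 peaks were members, 6 near TFAP2C, 5 near TFAP2E, 2 near TFAP2A and none near TFAP2B. The strongest was near TFAP2C, chr20:56721837-56722772, with a fold of 41.1. Of the 13, 0 overlapped a crest TWIST1 peak, which allows up to 23.1%. This share does not set the 13 apart from the whole list, at 12.0%. In the other direction, 0 of the 28 crest member peaks were in the RS4;11 list (Wilson interval 0 to 12.1%). Of all 42318 crest peaks 20.3% were in it, a share outside that interval. Peaks near the same gene are not independent, and the difference was not tested.

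Of 15247 genes, those whose start-site H3K27ac was most like a member's over the 18 groups of line and time included TMEM131L (Pearson r = 0.898), PON2 (0.888) and ZNF326 (0.860) for TFAP2A, and ATRNL1 (0.974) and IRS2 (0.965) for TFAP2B. For TFAP2C they were CRB2 (0.863), CAMTA2 (0.811) and SPAG7 (0.811), and for TFAP2E TEF (0.874), NFKB1 (0.864) and CLSPN (0.857). TFAP2A and TFAP2B correlated at 0.783. The points share lines, clones and libraries, so these are descriptions.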

How the data were processed

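H3K27ac was deposited by the authors as raw read counts over 213151 merged ATAC peak intervals, in 6 tables of 6 libraries, and binding as 70 peak lists, 1 per library. Each peak carries the deposited fold enrichment (a ratio), the authors' -log10 p and -log10 q, and a deposited score that was not used. Per the submitters' processing notes the tools were Bowtie2 2.4.1, SAMtools 1.10, MACS2 2.2.7.1 and deepTools 3.5.0, without their roles; neither the peak threshold nor the control is stated there. The builds, per the labels, were hg38 and mm39, and O9-1 mouse chromatin was added to WT and TWIST1FV libraries; those reads were not used here, so a global shift of H3K27ac would be lost in scaling. In each library at least 76.7% of counts of 20 or more were even, for a reason the labels do not state.

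Counts were fitted with edgeR 4.0.16 in R 4.3.3 (TMM, filterByExpr, quasi-likelihood test, Benjamini-Hochberg over all tested intervals, threshold 0.05): per line for time, and over all 36 libraries for lines at 0 h and for the interaction of TWIST1FV with WT. CPM used TMM-scaled library sizes; log2 CPM used a prior count of 2. SE is the log2 fold change over the square root of F. The scripts were tested on simulated data. Peaks overlapped with at least 1 bp; TWIST1 peaks of WT are those of replicate 1 overlapped by replicate 2, and AP2a peaks of both antibodies are Novus Bio peaks overlapped by Cell Signaling. Shares carry Wilson intervals at 95%, and a share of 0 is limited by 3 counts. GENCODE 44 and M39 gave starts; pysam 0.24.0, pandas 2.3.3, numpy 2.4.6, scipy 1.17.1, Python 3.11.15 and matplotlib 3.10.9 were used. Alternatives were DESeq2 1.42.0, library size alone, no filter, a replicate block, a 50 kb window, stricter or reciprocal peaks, and leaving out libraries.

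Named per gene were the start-site interval, the intervals called in TWIST1FV (up to 3 per direction and time), in the interaction or at 0 h (up to 2 per direction and line), and the strongest TWIST1 and AP2a peak; the TFAP2A and TFAP2B intervals and peaks named beyond this, the TFAP2E peak 33.4 kb upstream and the TFAP2B composite peak were chosen after their values were seen. Members and lists were chosen with earlier results of these data known. Replicate numbers mark clones in ALX1FV, PRRX1FV and ALX1FV ALX4-, where they pair the samples across times; same-numbered deviations correlated at 0.14 to 0.149 in ALX1FV and at no more than 0.0892 elsewhere. Of 200 samples, 106 had a file used here. Of the genes most like a member over the groups, 1 is not reported here.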

Additional observations from a re-analysis of the deposited data

Results flagged for a closer look

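In 2 member intervals the change after 24 h of dTAGV-1 differed between TWIST1FV and WT by the interaction term of the edgeR fit over 36 libraries, which is what marked them. At chr1:35605036-35606335, 17.1 kb downstream of TFAP2E in a PSMB2 intron, the difference was -1.37 on the log2 scale (adjusted p = 4.45e-04), and leaving out any 1 library moved it between -1.41 and -1.33. At chr6:10386799-10387299, 17.3 kb downstream of TFAP2A, it was -2.27 (adjusted p = 1.01e-04), between -2.40 and -2.11 without any 1 library. In both intervals TWIST1FV was lower at 24 h than at 0 h in 2 of 2 libraries, and the WT libraries of the times overlapped.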

How the results depend on the processing

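Of the values recomputed for whole comparisons, 30 moved beyond the limits set. In TWIST1FV at 3 h the 2 members called became 1 with DESeq2, 1 with library size alone, 0 without the filter and 4 with a replicate block, and 0 to 1 without any 1 library. At 24 h the 3 called became 6 with a replicate block, and in the interaction at 3 h 0 became 2 with it. The replicate numbers pair samples by clone in ALX1FV, PRRX1FV and ALX1FV ALX4-, where the block changed no count (0); in TWIST1FV, of 1 clone, they are shared numbers alone. Against WT at 0 h, the ALX1FV ALX4- count of 21 was 11 to 17 without any 1 library and 9 with ALX1FV as the reference line. The PRRX1FV count of 8 was 13 with DESeq2, 5 with library size alone, 13 with only the 0 h libraries of the 2 lines, 2 to 4 without any 1 library and 0 with ALX1FV as reference. The MSX1FNV count of 10 was 6 with library size alone, 1 to 4 without any 1 library and 0 with ALX1FV as reference. In leave-one-out fits a lone library is assumed to vary like the other groups. The cause of these shifts was not tested.

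The share of WT peaks kept at 3 h was 68.5% with a reciprocal overlap of 50%, RS4;11 had 8 members within 50 kb, and at a -log10 q of at least 5 FNP had 21 and HL 20. The difference in HEK293 peaks with ALX4 was 6.67 and ranged from 0.833 to 10.8 without any 1 list; the exact paired test by replicate number gave p = 0.500 (smallest 0.250). Among single intervals 174 values kept their direction and their side of the threshold, 54 kept the direction but no longer passed it, and 2 turned, neither of them past the threshold in the first place: the TFAP2B start at 3 h was -0.06 without the second 3 h library of TWIST1FV, and the TFAP2E start at 24 h ranged from -0.63 to 0.20 without any 1 library, being above 0 without the first 24 h library. At 3 h the TFAP2A interval 17.3 kb downstream lost its call with DESeq2 (adjusted p = 0.0524), library size alone (0.0647) and no filter (0.0662).

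With 2 libraries a group, an interval that was not called may still have changed. In counts simulated for TWIST1FV at 24 h, log2 fold changes of -1 and 1 were each called in 6% of 50 intervals. A change of -2 was called in 44% and a change of 2 in 94%. The other 110913 of 111113 tested intervals were left unchanged, whereas the real comparison called 16982 of 123361. With so few changed the adjusted p threshold is harder to pass, so these shares do not measure how often real changes were missed. The TFAP2C and TFAP2E starts rested on at most 24 counts, and few TFAP2C and TFAP2D intervals passed the filter. TWIST1FV and MSX1FNV each rest on clones of 1 label, and line, clone and preparation cannot be told apart.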
